A study of Homo sapiens with 3 samples.

Results

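Notch receptors, their ligands, the DNA-binding factor of the pathway and HES and HEY target genes were followed in FaDu, an established human cell line derived from a hypopharyngeal squamous carcinoma, after exposure to NSC-631570, an extract of greater celandine (Chelidonium majus). The members were the 10 genes NOTCH1, NOTCH2, NOTCH3, JAG1, JAG2, DLL1, HES1, HES4, HEY1 and RBPJ, taken with every probe set that names exactly 1 gene in the platform annotation. A probe set is a group of short probes that reads 1 stretch of a transcript. This gave 34 of 44988 such probe sets, for 10 of 18132 named genes. Another 4 probe sets name NOTCH2 together with near-identical relatives and were not used. The NSC-631570 group was 1 array of cells kept for 48 h with the extract at 10 µg/ml, which the submitters give as its EC50 dose, and the untreated group was 2 arrays of cells given distilled water instead. All cells were of the same line, without any genetic change named in the labels, and only this dose and time were measured.

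Notch receptors sit in the cell membrane and are activated by ligands of the Jagged and Delta-like families on neighbouring cells. Ligand binding leads to cleavage of the receptor by ADAM proteases and then by gamma-secretase, and the freed intracellular domain enters the nucleus, where it joins RBPJ and Mastermind coactivators at target genes such as HES1 and HEY1. In stratified epithelia the pathway is known for promoting the step from basal to differentiating cells, and NOTCH1 is often inactivated by mutation in squamous carcinomas of the head and neck.

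Among these genes the extract went with no change that passed the test over all genes. Of 9 tested members, 0 passed limma with Benjamini-Hochberg adjustment (adjusted p between 0.202 and 0.96), and of all 11932 tested genes 0.067% passed. At an unadjusted p under 0.05 the count was 1, HES1 with a positive difference, beside 12.2% of all tested genes with a positive and 2.24% with a negative one. On the probe sets that represent their genes, HES1 and HES4, which encode transcriptional repressors, had the largest positive differences (0.76 ± 0.23 and 0.52 ± 0.24 on the log2 scale, SE from limma, 1 NSC-631570 array against 2 untreated arrays). NOTCH1 had the largest negative one (−0.47 ± 0.26). The HES1 probe set was chosen on a mean that includes the NSC-631570 array, and another HES1 probe set was brighter on the untreated mean. Probe sets disagreed with each other for HES1 and RBPJ, and also for NOTCH2, NOTCH3 and DLL1. Only HES4 and JAG2 had no other probe set to compare.

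The promoters of HES1 and HES4 and 1 promoter window of RBPJ are shown because they hold the core sequence bound by RBPJ, whatever the direction of the gene. Promoter windows of 300 bases, reaching 250 bases upstream of the start site, were taken from RefSeq for 8 of the 10 genes, with 5 alternative windows for RBPJ. They were searched on both strands for GTGGGAA, whose matches overlap none of the other motif searched, and they stand in capitals, in the orientation of the gene. The third window, of RBPJ itself, holds 2 matches, 1 of them on the opposite strand.
HES1 (GRCh38.p14, chr3:194135898-194136197, plus strand): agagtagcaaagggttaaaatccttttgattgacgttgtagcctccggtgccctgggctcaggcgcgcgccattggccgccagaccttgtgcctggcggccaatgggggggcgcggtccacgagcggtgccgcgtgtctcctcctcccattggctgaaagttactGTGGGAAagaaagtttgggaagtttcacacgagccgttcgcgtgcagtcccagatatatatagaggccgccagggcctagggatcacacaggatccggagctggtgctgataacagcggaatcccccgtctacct
HES4 (GRCh38.p14, chr1:1000048-1000347, minus strand): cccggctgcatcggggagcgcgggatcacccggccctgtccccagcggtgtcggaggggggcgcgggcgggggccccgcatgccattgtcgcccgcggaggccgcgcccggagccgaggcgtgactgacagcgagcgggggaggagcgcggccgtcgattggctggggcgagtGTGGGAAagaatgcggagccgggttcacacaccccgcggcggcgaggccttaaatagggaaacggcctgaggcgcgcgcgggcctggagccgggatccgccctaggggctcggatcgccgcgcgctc
RBPJ (GRCh38.p14, chr4:26319496-26319795, plus strand): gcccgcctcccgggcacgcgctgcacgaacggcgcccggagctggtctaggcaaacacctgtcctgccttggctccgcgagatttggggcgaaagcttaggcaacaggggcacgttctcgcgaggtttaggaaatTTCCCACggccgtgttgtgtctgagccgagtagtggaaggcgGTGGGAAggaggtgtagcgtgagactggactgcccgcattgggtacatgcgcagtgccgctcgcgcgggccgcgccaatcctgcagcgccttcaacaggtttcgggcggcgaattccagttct

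In HES1 the match begins 85 bases upstream of the start site, and in HES4 it begins 77 bases upstream, both on the strand of the gene. In RBPJ the matches begin 115 bases upstream, on the opposite strand, and 73 bases upstream, on the strand of the gene. Of 35116 RefSeq promoter windows, 6.25% hold at least 1 match and 0.248% hold 2 or more. The windows of NOTCH1, NOTCH2, NOTCH3, JAG1 and JAG2 and the 4 other windows of RBPJ hold none. The N box CACNAG, a sequence bound by HES repressors, occurs 4 times in the HES1 window and not in that of HES4, where 38.0% of all windows hold at least 1 match and 8.94% hold 2 or more. It also occurs in the windows of NOTCH1 (2 matches), NOTCH2 (1) and NOTCH3 (1) and in another RBPJ window (2). DLL1 and HEY1 had no window here and were not searched. A match is only a run of letters in the window.

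Over all probe sets the array medians were 6.55 on the NSC-631570 array, against 6.62 and 6.57 on the untreated arrays. Scaling still mattered for the tested genes. Their median difference was 0.12, and −0.08 when array medians over the tested genes were made equal. The 5 squamous and epithelial markers with a named probe set, KRT5, KRT14, SFN, CDH1 and EPCAM, ran from 11.49 to 13.96 on the NSC-631570 array, against 10.3 to 13.5 on the untreated arrays. The 5 endothelial markers ran from 4.75 to 7.40, against 4.86 to 7.79 untreated, and the 5 fibroblast markers from 4.27 to 6.20, against 4.21 to 6.21 untreated. Of 4 leukocyte markers PTPRC, which defines the lineage, stood at 3.78, against 3.72 and 3.72 untreated, below the signal filter of 5.85. Past the filter were CD3E, at 6.05 against 6.04 and 5.65 untreated, and CD68, with 3 of the 5 endothelial and 2 of the 5 fibroblast markers. CD68, which other cells also make, stood at 9.53, against 7.61 and 8.55 untreated. The control probe set for the 5′ end of ACTB stood at 12.2 on the NSC-631570 array, against 13.6 on both untreated arrays, a 2.59-fold lower signal, while its 3′ control differed by 0.20. For GAPDH the 5′ control differed by −0.48 and the 3′ control by −0.01. Arrays read bulk RNA, in which fewer cells of a kind and less RNA per cell cannot be told apart. The part of this 5′ difference in the results below was not tested.

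The receptors came first. NOTCH1 (11718260_at) had a log2 signal of 8.65 on the NSC-631570 array, against 9.37 and 8.89 on the untreated arrays. The NSC-631570 value lay below both, by 0.71 from untreated 1 but by only 0.24 from untreated 2, and the untreated arrays were 0.48 apart. The signal was 1.39-fold lower than the untreated mean, with a 95% interval of the log2 difference from −1.07 to 0.13 (limma adjusted p = 0.462). A second NOTCH1 probe set (11718261_at) read 6.63, against 6.996 and 6.77 untreated, and the third (11718259_at), below the filter, read 5.62 against 5.70 and 5.70. All 3 NOTCH1 probe sets were therefore below both untreated arrays, the third by the smallest margin. Among the members with several probe sets, NOTCH1 was the only one for which they all lay on 1 side. The share of all genes with every probe set on 1 side was not computed.

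NOTCH2, a receptor with a broader tissue range, gave opposite readings. Its representative probe set (11732189_at), the one with the highest mean signal, stood at 9.67, against 9.44 and 9.41 untreated, above both (difference 0.24 ± 0.21, limma adjusted p = 0.693). Probe set 11745768_a_at stood at 7.997, against 8.58 and 8.26 untreated, and 11745769_a_at at 6.14, against 6.63 and 6.57 untreated. These lay below both untreated arrays, by −0.42 and −0.46 from the untreated mean. The remaining NOTCH2 probe sets, below the filter, also split, with differences of 0.19 and −0.43.

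NOTCH3 is a receptor best known from vascular smooth muscle and also made by epithelial cells. Its representative probe set (11716570_a_at) stood at 6.99, against 7.14 and 6.998 untreated, a difference of −0.08 ± 0.22 that cleared the nearer untreated array by 0.01 (limma adjusted p = 0.924). The other probe set (11716569_at) stood at 7.11, against 6.74 and 5.47 untreated. It was 2.01-fold above the untreated mean, but the untreated arrays were themselves 1.28 apart on the log2 scale, a gap of 2-fold or more that 1.38% of tested probe sets showed.

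**Figure D1:**
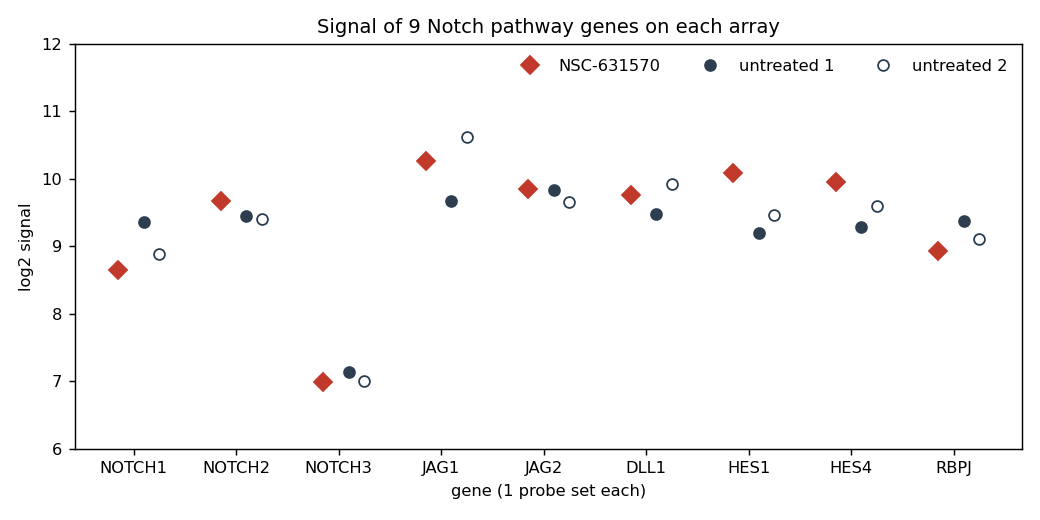
Log2 signal (vertical axis) of the representative probe set of each of the 9 tested genes (horizontal axis), with the NSC-631570 array as a diamond and the 2 untreated arrays as filled and open circles. HES1 and HES4 lie above both untreated arrays and NOTCH1 and RBPJ below both, while JAG1 and DLL1 lie between them.

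Of the ligands, JAG2 alone cleared both untreated arrays on its representative probe set, by 0.01. JAG1, a Jagged ligand and itself reported as a Notch target, stood at 10.3 (11720825_s_at), against 9.67 and 10.6 untreated. The value lay between untreated arrays that were 0.95 apart, and the difference was 0.12 with a 95% interval from −0.72 to 0.95 (limma adjusted p = 0.934). Untreated 2 was higher than untreated 1 in all 6 JAG1 probe sets, by 0.07 to 1.25, and in 48.3% of all tested probe sets. A shared order was not particular to JAG1. Untreated 2 was higher in all 5 HES1 probe sets and in 0 of 5 NOTCH2 probe sets, and probe sets of 1 gene are not replicates. The NSC-631570 value lay between the untreated arrays in 4 of the 6 JAG1 probe sets. Probe set 11720824_a_at was below both, at 6.84 against 7.14 and 7.44 untreated, as was 11720826_s_at, which was below the filter. Measured from untreated 1 the JAG1 difference was 0.59, and from untreated 2 it was −0.36.

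JAG2, the other Jagged ligand, stood at 9.85 (11723896_a_at), against 9.84 and 9.66 untreated. It cleared untreated 1 by 0.01, and the difference of 0.10 ± 0.22 had a 95% interval from −0.41 to 0.61. DLL1, a Delta-like ligand linked in skin to keratinocyte differentiation, stood at 9.76 (11724938_at), against 9.48 and 9.92 untreated, between them. Its other probe sets parted in direction: 11724937_a_at stood at 6.80, against 7.21 and 7.07 untreated, and 11760768_at stood at 6.64, against 6.51 and 6.24 untreated. The 95% interval of the representative DLL1 difference ran from −0.53 to 0.64, so changes in either direction within it are compatible with these arrays.

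RBPJ encodes the factor that carries the Notch signal on DNA and acts as a repressor when no receptor domain is bound. Its representative probe set (11757737_s_at) stood at 8.93, against 9.37 and 9.11 untreated, below both (difference −0.31 ± 0.23, limma adjusted p = 0.613). Without probe sets of the _x_at and _s_at kinds RBPJ was represented by 11739392_a_at, and the gene differed by −1.15 (limma adjusted p = 0.0613, between 0.0613 and 0.676 over all alternatives). Probe set 11762366_s_at went the other way, at 8.55 against 8.22 and 8.12 untreated. Probe set 11739392_a_at stood at 6.67, against 7.74 and 7.90 untreated, 2.21-fold lower than the untreated mean and 2-fold or more below each untreated array, as were 2.57% of all tested probe sets.

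That RBPJ probe set was the only one of 25 tested member probe sets to pass when the test was run over probe sets one by one (limma adjusted p = 0.0427, over 27249 probe sets, of which 2.93% passed). The call was lost with quantile normalisation, without a filter on low signals and when the array medians over all probe sets were made equal (limma adjusted p between 0.0519 and 0.0647), while the difference stayed between −1.15 and −1.10. Of 15317 probe sets that do not represent their gene 4.39% were 2-fold or more below both untreated arrays, and of the 11932 representative ones 0.235%. The 5′ control of ACTB was also 2.59-fold lower on the same array. The position of this probe set along the transcript was not determined here. The 3 RBPJ probe sets below the filter differed by 0.23, −0.61 and −0.06.

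On representative probe sets the largest positive differences were those of 2 target genes. HES1, the basic helix-loop-helix repressor that is the classical Notch target, stood at 10.1 (11716551_s_at), against 9.20 and 9.46 untreated. The value was above both untreated arrays, which were 0.27 apart, and cleared the nearer one by 0.62, a margin of 0.5 or more that 8.79% of tested genes showed upwards. The signal was 1.69-fold higher than the untreated mean, the 95% interval of the log2 difference ran from 0.23 to 1.29, and the unadjusted p was 0.0112 (limma adjusted p = 0.202).

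A second HES1 probe set did not show this difference. Probe set 11716550_at stood at 9.49, against 9.41 and 9.74 untreated, between them, with a difference of −0.09 ± 0.24. Of the other HES1 probe sets, 11760347_x_at stood at 7.30, against 7.74 and 7.83 untreated, and 11760346_at at 5.67, against 5.93 and 5.98 untreated, both below. Probe set 11760345_a_at stood at 7.27, against 7.14 and 7.24 untreated, above both by 0.02. The mean of all 5 HES1 probe sets differed by −0.0034, so the direction of HES1 rests on which probe set is read.

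HES4, a related repressor without a mouse counterpart, stood at 9.96 (11726474_a_at), against 9.29 and 9.60 untreated. It was above both, by 0.67 from untreated 1 and by 0.36 from untreated 2, and 1.43-fold above their mean (95% interval of the log2 difference from −0.03 to 1.06, limma adjusted p = 0.371). HEY1, a repressor of the HES-related family, was below the filter on both its probe sets and was not tested. It read 4.84, against 4.80 and 4.54 untreated, on 11750209_a_at, and 4.35, against 4.08 and 4.44 untreated, on 11718201_at.

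**Figure D2:**
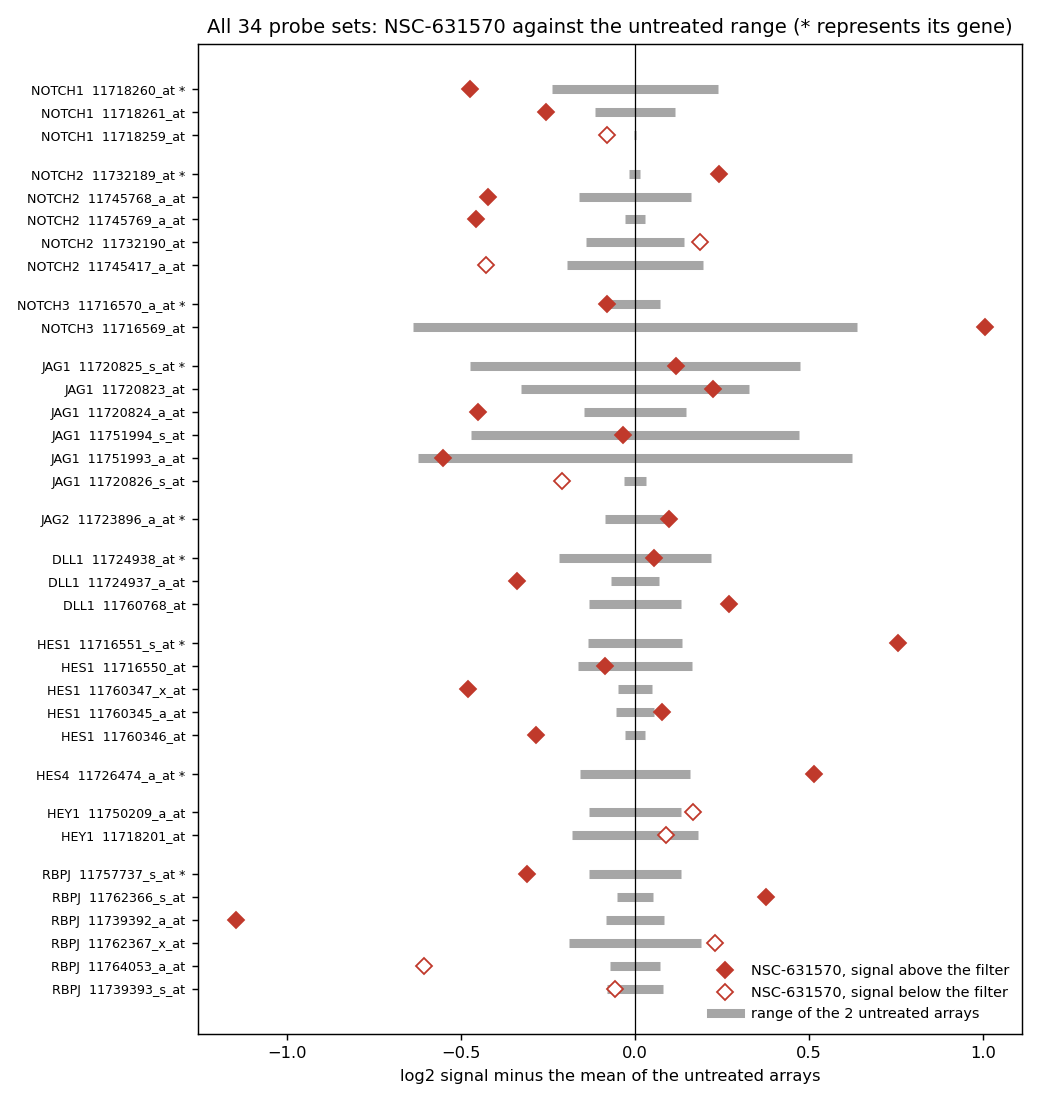
Log2 signal of the NSC-631570 array minus the mean of the untreated arrays (horizontal axis) for each of the 34 probe sets (rows, by gene), with filled diamonds above the signal filter and open ones below it. Grey bars give the range of the 2 untreated arrays and an asterisk marks the probe set that represents its gene. Diamonds of HES1, RBPJ, NOTCH2, NOTCH3 and DLL1 fall on both sides of their grey bars, and those of NOTCH1 all fall to the left.

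Counted over genes, 4 of the 9 tested members lay above both untreated arrays (NOTCH2, JAG2, HES1 and HES4), 3 below both (NOTCH1, NOTCH3 and RBPJ) and 2 between. Over all tested genes 51.6% lay above both, 22.5% below both and 25.9% between. When array medians over the tested genes were made equal, 3 members lay above both and 4 below both, and the shares of all tested genes were 28.4% and 46.4%. Without untreated replicate 1, 5 members lay below the remaining array, where the median difference of all tested genes was 0.13. With 1 untreated array no value can lie between, so the shares above do not apply to that count. With a margin of 0.5 on the log2 scale 1 member, HES1, remained above and 0 below, against 8.79% and 1.63% of all tested genes. With a 2-fold margin the counts were 0 and 0, against 0.88% and 0.235%. The median difference of the members was 0.10, beside 0.12 over all tested genes. Set against that median gene, HES1 differed by 0.64, HES4 by 0.40, NOTCH1 by −0.59 and RBPJ by −0.43.

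Counted over probe sets, 8 of 25 lay above both untreated arrays, 11 below both and 6 between, beside 40.7%, 34.5% and 24.8% of all tested probe sets. Without untreated replicate 1, 17 lay below the remaining array, and without untreated replicate 2, 14 lay above it. In these settings the median difference of all tested probe sets was 0.04 and 0.02. The shares above do not apply to these 2 counts, as no value can lie between with 1 untreated array. Of the 7 members with 2 or more tested probe sets, 5 had 1 probe set above both untreated arrays and another below both: NOTCH2, NOTCH3, DLL1, HES1 and RBPJ. Over all 7124 such genes the share was 31.6%. It was 18.4% of genes with 2 tested probe sets, 33.5% of those with 3 and 50.7% of those with 5. Within a gene the differences spanned 1.52 for RBPJ (3 tested probe sets), 1.24 for HES1 (5) and 1.09 for NOTCH3 (2). For NOTCH1, with 2 tested probe sets, the span was 0.22. The median span was 0.41 over all such genes, 0.24 with 2 tested probe sets, 0.44 with 3 and 0.68 with 5.

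**Figure D3:**
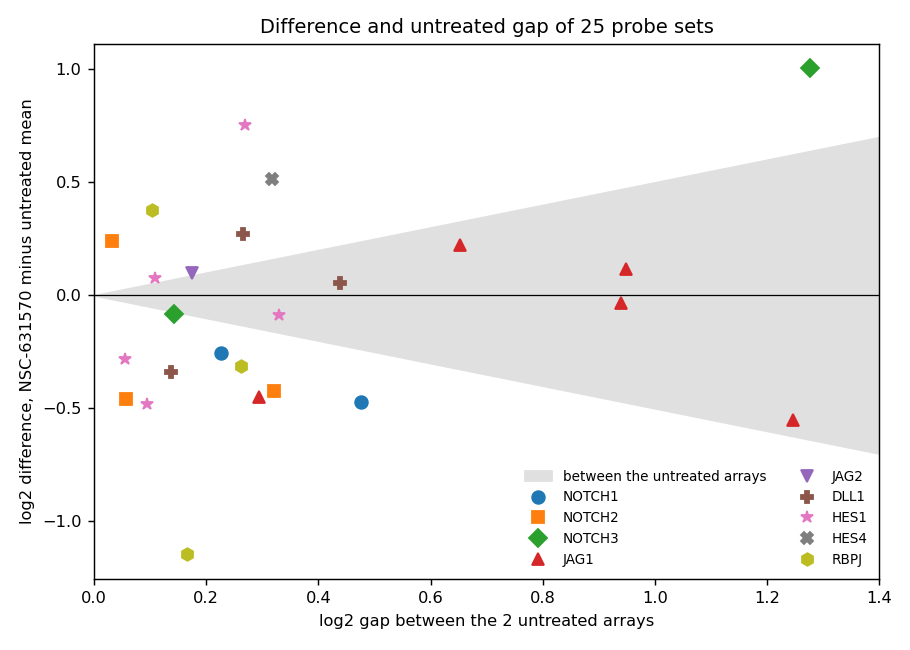
Log2 difference of the NSC-631570 array from the untreated mean (vertical axis) against the log2 gap between the 2 untreated arrays (horizontal axis) for the 25 tested probe sets, with a symbol for each gene. In the grey wedge, which holds 6 probe sets, the NSC-631570 value lies between the untreated values, and 4 of these are from JAG1.

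The pathway's other genes were taken from 10 lists by role, 87 genes in all, of which 69 were tested. None passed limma over all genes (lowest adjusted p = 0.104), while at an unadjusted p under 0.05 the differences were positive for 11 genes and negative for 2, beside 12.2% and 2.24% of all tested genes. Of the 69, 40 lay above both untreated arrays and 11 below both, and their median difference was 0.19, beside 0.12 for all tested genes. When array medians over the tested genes were made equal, which moved the median of all genes to −0.08, the counts were 20 and 24 and the median of the lists −0.01. The counts of single lists are to be read against 51.6% above both and 22.5% below both over all tested genes, or against 28.4% and 46.4% with equal medians over the tested genes.

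Enzymes that add sugars to the receptor had differences with a median of 0.45 (5 tested, 4 above both and 1 below both), or 0.25 (3 and 1) with equal medians over the tested genes. MFNG, a Fringe glycosyltransferase that alters which ligands a receptor answers to, stood at 8.58, against 7.30 and 7.62 untreated, a difference of 1.12 ± 0.24, but its other probe set differed by 0.05. RFNG, a second Fringe enzyme, differed by 0.56, with its other probe set at −0.16. POGLUT1, which adds glucose to the receptor, differed by 0.45, its other probe sets having a median of 0.35. LFNG, the third Fringe enzyme, differed by −0.17.

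Of the 8 tested genes of receptor cleavage 7 lay above both untreated arrays and 1 below both, with a median difference of 0.36. With equal medians over the tested genes the counts were 3 and 2 and the median 0.16. FURIN, the protease that processes the receptor on its way to the surface, differed by 0.62, APH1B, a gamma-secretase subunit, by 0.49, and ADAM10, which cuts the ligand-bound receptor, by 0.32. PSENEN, another gamma-secretase subunit, was the 1 gene below both, at 9.46 against 9.85 and 9.91 untreated. Of the 7 genes of ligand endocytosis 5 lay above both and 1 below both (median 0.27), or 4 and 2 (median 0.07) with equal medians over the tested genes. Among those above both were the ubiquitin ligase genes NEURL1B (0.65), MIB2 (0.34) and NEURL1 (0.27) and the epsin gene EPN2 (0.32, median of its others −0.14).

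Among 11 genes of receptor turnover and inhibition 5 lay above both and 0 below both (median 0.19), but 3 and 2, with a median of −0.01, when medians over the tested genes were equal. The Deltex family genes DTX3L (0.79, median of the others 0.04) and DTX2 (0.39, its other probe set 0.71), FBXW7, the ubiquitin ligase subunit that marks the nuclear receptor domain for degradation (0.38, others 0.06), and NUMBL, related to the inhibitor Numb (0.09, others 0.59), were farthest from the untreated arrays. Of the 6 coactivators 4 lay above both and 1 below both, but 1 and 3 with equal medians over the tested genes. EP300, a histone acetyltransferase, stood at 8.06, against 8.80 and 8.46 untreated, below both (−0.57). MAML1, the Mastermind coactivator, differed by 0.37, SNW1 by 0.22 and KAT2A by 0.17.

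Among 12 genes of the corepressor list 6 lay above both and 2 below both (median 0.08), but 1 and 7, with a median of −0.12, when medians over the tested genes were equal. CTBP1, a corepressor that binds HES and RBPJ complexes, stood at 11.8, against 11.04 and 10.88 untreated, a 1.82-fold higher signal (limma adjusted p = 0.156), and its 3 other probe sets had a median difference of 0.77. TLE3, a Groucho corepressor, differed by −0.31 and HDAC2 by 0.08. RBPJL, a relative of RBPJ kept in this list though not itself a corepressor, stood at 6.18, against 5.98 and 6.04 untreated (0.17). Leaving out probe sets of the _x_at and _s_at kinds, which can match several transcripts, HDAC1 passed the test on a different probe set (−1.31, limma adjusted p = 0.0396), where its representative one differed by −0.05. HDAC1 was named after its values were seen.

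Of the 4 tested genes among the other receptors and ligands, EGFL7, a secreted protein reported as an antagonist of Notch, stood at 9.75, against 8.35 and 8.66 untreated. It was 2.37-fold higher than the untreated mean, its 2 other probe sets had a median difference of 1.16, and it missed the threshold (limma adjusted p = 0.104), but passed when the array medians over all probe sets were made equal (limma adjusted p = 0.0411). DLK2 differed by 0.19 and NOTCH4 by 0.07. Of the 5 tested HES-related genes, BHLHE40 stood at 8.78, against 9.28 and 10.1 untreated (−0.90), HES6 at 8.16, against 7.20 and 7.66 untreated (0.73), and HEYL within 0.01 of both untreated arrays.

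Genes that Notch is known to act on in other settings were split, with 2 of 6 above both untreated arrays, 2 below both and 2 between (median −0.01). With equal medians over the tested genes 2 lay above both and 2 below both (median −0.21). The 2 between were NRARP (0.004) and MYC (−0.03), named after their values were seen. CDKN1A, a cell cycle inhibitor that Notch induces in keratinocytes, stood at 11.2, against 10.3 and 10.4 untreated (0.80, its other probe set 0.65), and SOX9 differed by 0.83, its other probe sets having a median of −0.09. CCND1, the D-type cyclin gene, differed by −0.56, its other probe sets having a median of −0.94. GATA3 differed by −0.09. Of 5 tested squamous differentiation genes 3 lay above both and 1 below both (median 0.49), or 1 and 1 (median 0.29) with equal medians over the tested genes. KRT14, a basal keratin, differed by 0.95, KRT13, a suprabasal keratin of mucosa, by 0.49 and KRT10, a suprabasal keratin of skin, by 0.26. KRT4, named after its values were seen, lay between untreated arrays that were 1.74 apart. KRT5, the basal partner of KRT14, differed by −0.39, and by −2.30 on its other probe set.

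**Figure D4:**
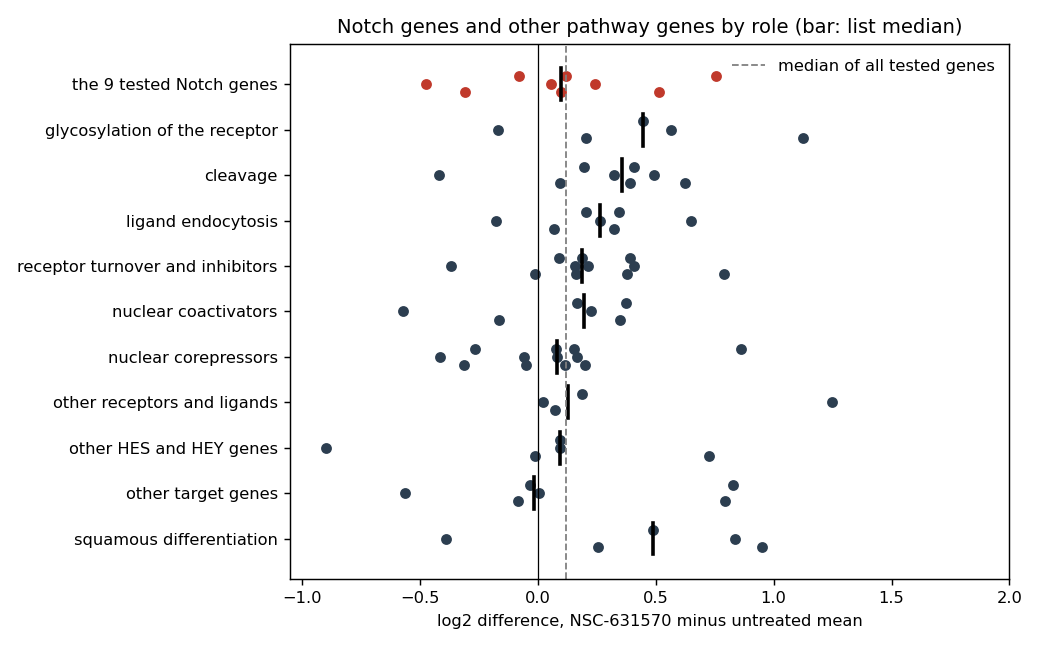
Log2 difference of the NSC-631570 array from the untreated mean (horizontal axis) for the 9 tested Notch genes and for 69 other pathway genes by role (rows), 1 point a gene, with a black bar at each list's median. The dashed line is the median of all 11932 tested genes, 0.12, and the median of the Notch genes lies at 0.10.

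On representative probe sets HES1 lay farthest of the members from the nearer untreated array. The genes whose 3 array values, each centred on its own mean, lay closest to those of HES1 were ACVR1, FLYWCH1 and DCAF8, at Euclidean distances of 0.0079, 0.0090 and 0.017 on the log2 scale. ACVR1 stood at 9.52, against 8.64 and 8.90 untreated. With 3 arrays and 11932 genes such closeness is a description only.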

How the data were processed

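FaDu RNA (100 ng of total RNA, labelled with biotin) was hybridised to Affymetrix PrimeView arrays, 1 for each of 3 samples. The deposited table holds a log2 signal for every probe set on every array, which the authors produced in Affymetrix Expression Console, per the submitters' processing notes. Its algorithm, version and genome build are not stated there. The log2 scale was read from the values (2.98 to 14.9 on the NSC-631570 array). Detection was not called, and the small number of arrays limits precision.

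Names came from the platform annotation. Of 49395 probe sets, 102 array controls, 1832 naming several genes and 2473 without a gene were left out. A gene was represented by whichever of its probe sets had the highest mean signal across all 3 arrays, so the NSC-631570 value took part in the choice. Genes whose mean was under the 40th percentile (5.85) were not tested. NSC-631570 was compared with untreated in limma (version 3.58.1, in R 4.3.3), with p-values adjusted by Benjamini-Hochberg over all genes, and separately over all probe sets past the filter (threshold 0.05). Only the untreated arrays give a residual variance (1 degree of freedom), which limma moderated (6.9 prior degrees of freedom, prior SD 0.187), and the NSC-631570 array was taken to have the same spread. No label says that the untreated arrays are separate cultures, so the spread may be technical. The fit was checked on simulated arrays.

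The members and the gene lists were chosen with earlier results of these data known. All members are named, with up to 4 tested genes of each list, those farthest from the nearer untreated array; others are marked. Alternatives were other scalings, filters, probe set choices, priors and margins, and each untreated array left out in turn. A pseudocount alternative was not needed for log values.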

Additional observations from a re-analysis of the deposited data

How the results depend on the processing

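The limits are 1 NSC-631570 array, 2 untreated arrays of unknown independence, and no detection call. No member passed limma over genes under any scaling, filter, probe set choice or prior tried (adjusted p between 0.0613 and 0.998). Of 98 recomputed member differences 87 kept direction and 11 turned. Other filters and priors cannot move a difference, so those settings are among the 87 by construction. Differences with an untreated array left out have a direction but no test. With the mean of all probe sets of a gene, NOTCH2 was at −0.18, NOTCH3 at 0.46, JAG1 at −0.15, DLL1 at −0.0039 and HES1 at −0.0034, and without _x_at and _s_at probe sets HES1 was at −0.086 and RBPJ at −1.15 (against −0.31). With equal array medians over the tested genes, JAG1 was at −0.078, JAG2 at −0.10 and DLL1 at −0.14. Leaving out an untreated array, JAG1 ran from −0.36 (without untreated replicate 1) to 0.59 and DLL1 from −0.16 (without untreated replicate 1) to 0.27. The cause of these shifts was not tested.

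With a log2 margin of 0.5, 1 member lay above and 0 below both untreated arrays, and with a margin of 1, 0 and 0. Leaving out an untreated array, 3 to 5 members lay below the remaining one and 4 to 6 above it, and of the probe sets 11 to 17 lay below and 8 to 14 above. The shares of all genes and probe sets given for both untreated arrays do not apply to these counts. At the 60th percentile filter, which left 14 member probe sets, 5 lay above and 5 below both, and the shares of all probe sets at this filter are not given here. The called RBPJ probe set was lost, for a count of 0, with quantile normalisation, equal array medians over all probe sets and no filter.

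The count of genes past the threshold was 8 (5 higher, 3 lower). It was 4 (3 and 1) after quantile normalisation, 136 (111 and 25) with equal array medians over all probe sets, 50 (21 and 29) with equal array medians over the tested genes, 4 (3 and 1) without a filter, 21 (12 and 9) at the 60th percentile, 3 (2 and 1) with the mean of probe sets, 31 (20 and 11) with a trend in the prior and 121 (47 and 74) without _x_at and _s_at probe sets. One other pathway gene passed with equal array medians over all probe sets (EGFL7) and 1 without _x_at and _s_at probe sets (HDAC1). Leaving out an untreated array left no residual degrees of freedom, so those values have no test. No paired analysis was possible with 1 NSC-631570 array.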
